A study of Mus musculus with 4 samples.

Results

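Proliferating nuclei of mouse liver were picked out by their transcripts and split by cell type. A nucleus was counted as proliferating when at least 3 of 9 cell cycle genes had a UMI in it, a UMI being 1 captured RNA molecule. The 9 genes are Top2a, Mki67, Cenpp, Cenpf, Cenpe, Hmmr, Kif11, Diaph3 and Knl1, and only nuclei with 200 to 7000 detected genes and at most 21% mitochondrial UMIs were considered. The rule found 243 of 42877 nuclei (0.567%). Each was then placed by marker genes, in a fixed order. At least 2 of Clec4f, Adgre1, Cd5l, Vsig4 and Csf1r made a nucleus a macrophage nucleus (56), at least 2 of Stab2, Ptprb, Flt1 and Kdr an endothelial nucleus (27), and at least 2 of Skap1, Themis, Bank1 and Pax5 a lymphoid nucleus (10). Of the rest, at least 3 of Alb, Apob, Mlxipl, Serpina3k and Hnf4a made a nucleus hepatocyte-like (124), and 26 nuclei met no gate. Applied to all nuclei, the same gates held 1711 macrophage, 3318 endothelial, 1053 lymphoid and 32178 hepatocyte-like nuclei and left 4617 without a class.

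The nuclei came from frozen livers of Bl/6 mice fed a chow diet (CD) or a low-protein diet (LPD). The diets were given for 1 week before and 2 weeks after hydrodynamic tail vein injection of Sleeping Beauty transposon plasmids. The oncogene plasmids carried human c-MET and an N-terminally deleted, constitutively active β-catenin behind the EF1α promoter, which is not restricted to 1 cell type, and the control mice received plasmid without these genes. Each of the 4 combinations of diet and plasmid was 1 library, so no difference between groups was tested and all intervals are 95% exact intervals that cover counting error only. Where a count was 0, the limit given is the share that 3 counts would make, and for a gene it limits nuclei with a UMI and not nuclei that express it. The number of animals behind a library was not given in the sources used here. The libraries were labelled CD control and CD oncogene, then LPD control and LPD oncogene, and held 10397, 12552, 9825 and 10103 nuclei in that order, with median depths of 3807, 3294, 1962 and 1762 UMIs. Values given as a series of 4 below keep this order. UMIs of the human transgenes numbered 100, 0, 0 and 6, which goes against the labels of the CD pair, so every direction between the CD libraries depends on which label is right. The study's text also orders the CD pair by number of nuclei the other way round. Pairs of libraries shared 18 to 40 barcodes.

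In the adult liver most hepatocytes and sinusoidal endothelial cells rest outside the cell cycle, whereas Kupffer cells, the resident macrophages, renew themselves by local division. A cell that enters the cycle first licenses its replication origins and copies its DNA in S phase, and then builds a spindle, attaches its chromosomes at the kinetochores and divides at M phase. The genes of S phase are known to be driven largely by E2F factors, and those of G2 and M phase by the DREAM and MuvB complexes with B-MYB and FOXM1, which act at the cell cycle genes homology region (CHR) and at CCAAT boxes.

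The genes that chose the nuclei were first examined at their promoters, because the nuclei are defined by the joint detection of these genes. The RefSeq promoter windows of GRCm38.p6, from 250 bases before to 50 bases after the start site, were searched on both strands. The CHR was searched as TTTGAA together with its variants TTCGAA, which reads the same on both strands, and TTTAAA, which does so too. For the CCAAT box, the letters CCAAT were searched. E2F sites were searched as TTGGCGC and its variants TTCCCGC and TTCGCGC. The TTGG that opens the first E2F motif can also be the end of a reversed CCAAT box. A CHR was present in 7 of the 9 windows, against 28.8% of 32851 windows of 27025 genes. A CCAAT box was present in 7 of 9 (37.4% of all windows), both in 6 of 9 (11.3%), and an E2F motif in 2 of 9 (8.07%). The windows of Top2a, which untangles DNA, the Ki-67 gene Mki67, the spindle motor genes Kif11 and Cenpe and the spindle-binding Hmmr show how these motifs are arranged, and their 250 bases before the start site are printed 5′ to 3′ on the gene's strand with all 3 kinds of motif in capitals:
Top2a: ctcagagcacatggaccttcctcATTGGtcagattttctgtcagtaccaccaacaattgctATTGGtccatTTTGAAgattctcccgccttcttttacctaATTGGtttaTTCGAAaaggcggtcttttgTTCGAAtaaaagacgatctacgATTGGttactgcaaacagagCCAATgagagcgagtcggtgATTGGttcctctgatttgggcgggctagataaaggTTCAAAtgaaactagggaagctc
Mki67: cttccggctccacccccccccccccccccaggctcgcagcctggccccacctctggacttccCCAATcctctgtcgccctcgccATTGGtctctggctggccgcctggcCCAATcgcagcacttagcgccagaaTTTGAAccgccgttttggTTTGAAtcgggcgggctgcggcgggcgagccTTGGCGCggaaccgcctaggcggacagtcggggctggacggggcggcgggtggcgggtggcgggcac
Kif11: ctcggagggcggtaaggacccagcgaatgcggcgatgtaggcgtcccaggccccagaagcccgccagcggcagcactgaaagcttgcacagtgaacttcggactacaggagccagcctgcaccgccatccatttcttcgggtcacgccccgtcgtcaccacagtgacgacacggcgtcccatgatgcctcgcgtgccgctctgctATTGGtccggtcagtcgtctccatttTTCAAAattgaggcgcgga
Cenpe: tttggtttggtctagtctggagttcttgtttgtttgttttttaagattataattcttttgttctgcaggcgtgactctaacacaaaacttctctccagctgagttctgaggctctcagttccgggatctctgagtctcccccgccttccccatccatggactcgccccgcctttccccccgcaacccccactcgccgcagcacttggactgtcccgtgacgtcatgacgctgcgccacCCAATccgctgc
Hmmr: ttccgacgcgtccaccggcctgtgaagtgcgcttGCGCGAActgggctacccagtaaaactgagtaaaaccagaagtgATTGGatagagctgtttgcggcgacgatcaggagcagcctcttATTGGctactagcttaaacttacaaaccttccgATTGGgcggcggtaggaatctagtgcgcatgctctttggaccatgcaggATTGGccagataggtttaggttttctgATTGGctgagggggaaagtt

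The Top2a stretch (chr11:99024190-99024439, minus strand) held 4 CHR motifs at positions -179, -140, -120 and -23 from the start site and 6 CCAAT boxes. That of Mki67 (chr7:135716380-135716629, minus strand) held CHR motifs at -116 and -98, 3 CCAAT boxes and an E2F motif at -67. Kif11 (chr19:37376132-37376381, plus strand) had 1 CHR at -19 and 1 CCAAT box at -45. In Cenpe (chr3:135212313-135212562, plus strand) and Hmmr (chr11:40733438-40733687, minus strand) the CHR lay beyond the start, at 15 and 9, past the printed stretch, with CCAAT boxes before it. Cenpp, a centromere gene, had none of the motifs, and Diaph3, a formin, had CCAAT boxes only. The mitosis genes outside the rule carried the same motifs: a CHR stood in 37 of 53 windows of the 48 mitosis genes that were matched (69.8%) and a CCAAT box in 38 (71.7%). Among 34 windows of 27 replication genes a CHR stood in 11 (32.4%) and an E2F motif in 22 (64.7%), against 9 of the 53 mitosis windows (17.0%). A match of letters is not evidence of binding.

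Diaph3 was the rule gene seen most often, in 195 of the 243 nuclei (80.2%), and Top2a was next, in 178 (73.3%). Cenpp (64.2%), Knl1 (57.6%), Kif11 (56.0%) and Mki67 (52.7%) followed, and Cenpe (41.2%), Cenpf (39.1%) and Hmmr (33.3%) were least often seen. The genes differed widely in how far a UMI of them pointed to a proliferating nucleus. Of the nuclei with Hmmr, 79.4% met the rule, against 27.0% of those with Kif11 and 9.01% of those with Cenpp, which had a UMI in 1731 nuclei. Hepatocyte-like proliferating nuclei had a median of 5 rule genes and 58 of 124 (46.8%) had 6 or more, while macrophage nuclei had a median of 4 and 14 of 56 (25.0%) had 6 or more. These values chose the nuclei and are given as a description.

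The 54 mitosis genes outside the rule (M list: mitotic kinases and checkpoint, kinetochore, spindle and cytokinesis) served to check the name. They were read as CPM, the UMIs of the list per 1000000 mouse UMIs summed over nuclei. Nuclei with no rule gene had M levels of 76.6, 75.9, 91.6 and 101 CPM. With 1 rule gene the levels were 79.6, 80.9, 128 and 155 CPM, little above these in the CD libraries and further above them in the LPD libraries. Just outside the threshold, the 183 nuclei with exactly 2 rule genes had 349, 200, 1866 and 894 CPM. Just inside it, the 68 nuclei with exactly 3 had 1088, 979, 3535 and 2432 CPM, and nuclei with 4 or more had 4279, 4753, 5402 and 5251 CPM. In both LPD libraries, which were shallower, nuclei with 2 rule genes already had higher M levels than in the CD libraries.

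Macrophage nuclei had the highest share of proliferating nuclei in every library except the one labelled CD oncogene. Among macrophage nuclei it was 8 of 252 (3.17%, 1.38 to 6.16) in the library labelled CD control and 3 of 328 (0.915%, 0.189 to 2.65) under the label CD oncogene. It was 10 of 333 (3.003%, 1.45 to 5.45) under the label LPD control and 35 of 798 (4.39%, 3.07 to 6.05) under LPD oncogene. Hepatocyte-like nuclei were proliferating in 32 of 8060 (0.397%, 0.272 to 0.560), 50 of 10294 (0.486%, 0.361 to 0.640), 10 of 7184 (0.139%, 0.0668 to 0.256) and 32 of 6640 cases (0.482%, 0.330 to 0.680). The library labelled LPD control was the lowest for hepatocyte-like nuclei, and its interval did not reach those of the other 3. That separation was lost against the library labelled CD control when Cenpp was left out of the rule (0.221 to 0.487 against 0.0668 to 0.256). It was also lost with at least 500 genes and at most 5% mitochondrial UMIs (0.162 to 0.478 against 0.0680 to 0.260). Without Cenpp the interval under the label LPD oncogene (0.244 to 0.555) overlapped as well. The ratio of the oncogene over the control label was 3.46 (1.66 to 7.90) on LPD and 1.22 (0.770 to 1.97) on CD, and the difference between the diets in this ratio was not tested. For macrophage nuclei the ratio was 1.46 (0.708 to 3.31) on LPD and 0.288 (0.0492 to 1.20) on CD, both with intervals that include 1. If the labels of the CD pair were exchanged, the CD ratios would be 0.817 (0.507 to 1.30) for hepatocyte-like and 3.47 (0.833 to 20.3) for macrophage nuclei.

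**Figure D1:**
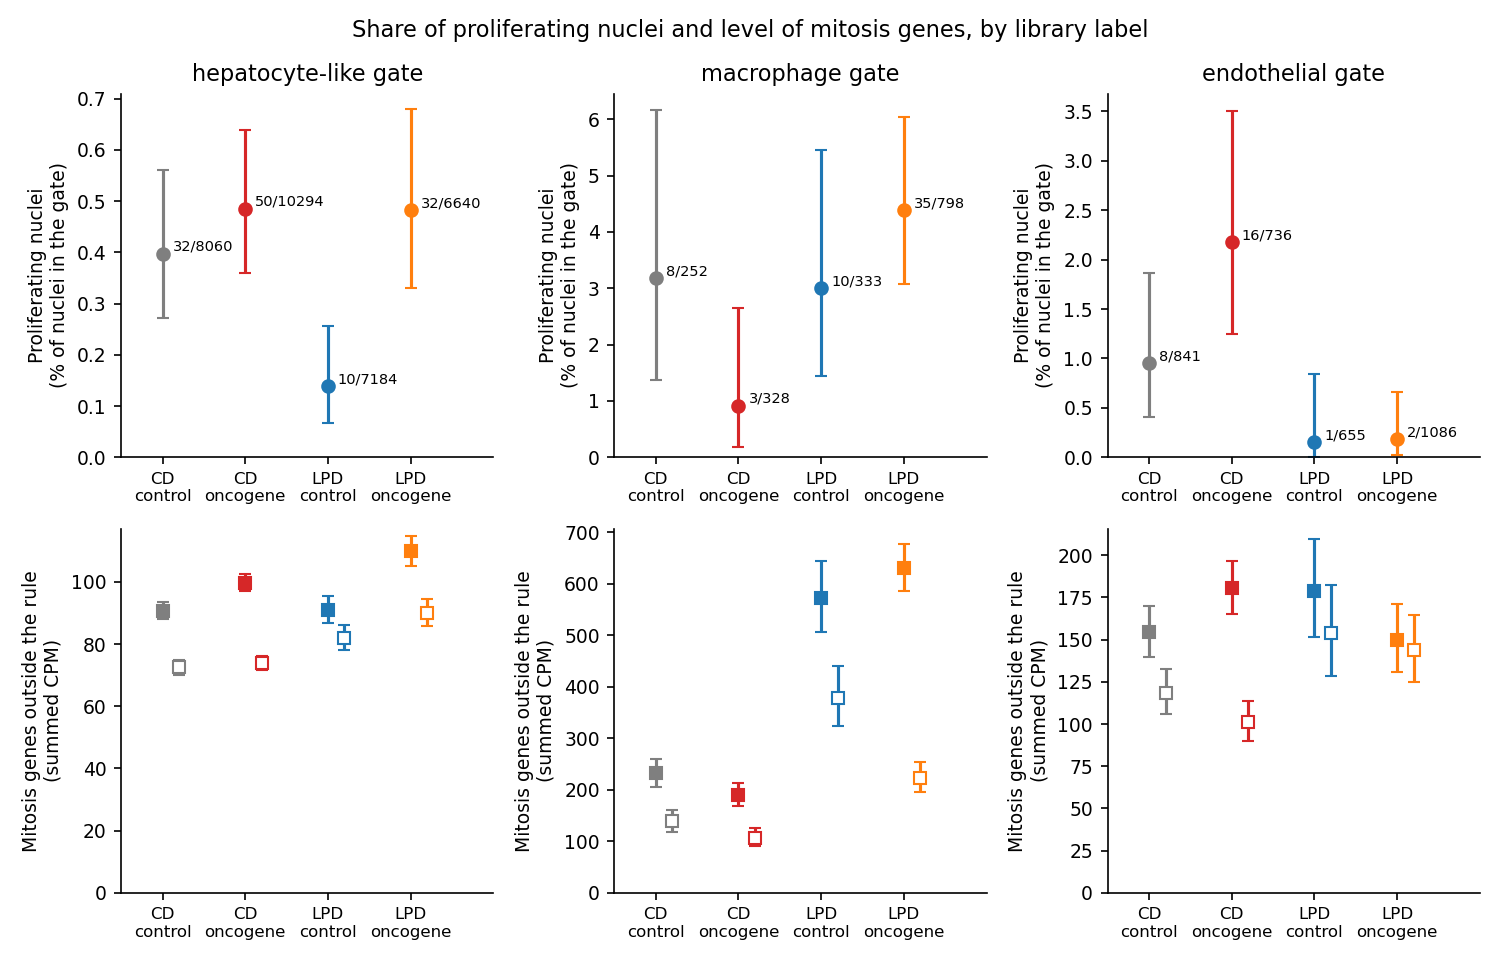
The upper panels plot the share of proliferating nuclei (percent of all nuclei in the gate, with the count beside each point) for the hepatocyte-like, macrophage and endothelial gates in the 4 libraries, and the lower panels the summed CPM of the mitosis genes outside the rule over all nuclei of the gate (filled squares) and over the other nuclei without the proliferating ones (open squares); bars are 95% exact counting intervals. Hepatocyte-like shares were 0.139% under the label LPD control and 0.397% to 0.486% in the other 3 libraries, and macrophage M levels were 572 and 631 CPM in the LPD libraries against 232 and 190 CPM in the CD libraries, whose macrophage gate held more nuclei that also met the hepatocyte gate (63.9% and 72.3% of the other nuclei against 25.7% and 20.2%).

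Depth affects such a rule, so each nucleus with at least 1000 UMIs was thinned to 1000, shallower nuclei were left out, and the rule was relaxed to at least 2 of the 9 genes. Thinned in this way, hepatocyte-like shares were 25 of 7575 (0.330%), 39 of 9658 (0.404%), 9 of 6797 (0.132%) and 29 of 6275 (0.462%), with the library labelled LPD control again the lowest, though its interval (0.0606 to 0.251) now overlapped that of the library labelled CD control (0.214 to 0.487). It was the lowest also at full depth with at least 2 rule genes (0.707%, 1.10%, 0.278% and 0.813%). With at least 4 rule genes the shares were 0.298%, 0.369%, 0.139% and 0.286%, and its interval (0.0668 to 0.256) then overlapped those of the libraries labelled CD control (0.191 to 0.443) and LPD oncogene (0.172 to 0.446). Of the macrophage nuclei, 213 of 252, 284 of 328, 163 of 333 and 466 of 798 were deep enough to be thinned. Macrophage shares were then 5 of 213 (2.35%), 2 of 284 (0.704%), 11 of 163 (6.75%, 3.42 to 11.8) and 26 of 466 (5.58%, 3.68 to 8.07). The LPD pair thus changed its order, with intervals that overlapped. At full depth with at least 2 rule genes the macrophage shares were 4.76%, 1.22%, 5.41% and 5.89%. By the rule at full depth, hepatocyte-like nuclei were 58.2%, 69.4%, 32.3% and 37.6% of them and macrophage nuclei 14.5%, 4.17%, 32.3% and 41.2%. Macrophage nuclei made up only 2.42% to 7.90% of all nuclei of a library.

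The M level over all nuclei of a gate does not depend on the rule. For macrophage nuclei it was 232 CPM (206 to 260) and 190 CPM (169 to 214) under the labels CD control and CD oncogene, and 572 CPM (506 to 644) and 631 CPM (586 to 677) in those labelled LPD control and LPD oncogene. Both LPD libraries thus lay above both CD libraries beyond counting error. Hepatocyte RNA moved with this difference: 63.9% and 72.3% of the other macrophage nuclei of the CD libraries also met the hepatocyte gate, against 25.7% and 20.2% in the LPD libraries, and the macrophage gate genes stood at 1960 and 1306 CPM against 3727 and 3888 CPM. With nuclei that had at least 3 hepatocyte genes barred, an alternative added after the data were seen, the CD pair had M levels of 399 CPM (306 to 511) for the control label and 156 CPM (95.2 to 241) for the oncogene label. The LPD pair, at 805 CPM (696 to 927) and 776 CPM (713 to 844) with the control label first, again lay above. When the proliferating nuclei were left out of the gate as first drawn, 139, 107, 379 and 224 CPM remained. Hepatocyte-like nuclei had 90.7, 99.7, 91.0 and 110 CPM, of which 72.5, 73.9, 82.0 and 90.1 CPM remained without the proliferating nuclei, so their M level came mostly from nuclei that the rule did not choose. For endothelial nuclei the M levels were 154, 180, 179 and 150 CPM, and all 4 intervals overlapped. With hepatocyte-rich nuclei barred the control labels had 221 CPM (182 to 266) on CD and 242 CPM (197 to 295) on LPD. For the oncogene label the level was then 366 CPM (294 to 451) on CD and 165 CPM (138 to 195) on LPD. With all nuclei of the gate, the first of these lay above the second and above the CD control label beyond counting error. Without the proliferating nuclei it was 237 CPM (179 to 307). That interval overlapped those of the CD control label (176 CPM, 141 to 216) and the LPD oncogene label (165 CPM, 138 to 195).

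The macrophage nuclei were checked against markers that the gate did not use. In the library labelled LPD oncogene, 30 of the 35 proliferating nuclei had at least 2 of 10 Kupffer cell genes, and the list stood at 2574 CPM against 2831 CPM in the other macrophage nuclei, with no gene of the list at 0. Timd4, of resident Kupffer cells, was at 274 CPM against 420 CPM. Clec4f, a Kupffer cell lectin, was at 811 CPM against 1130 CPM, but it is a gate gene and so does not check the name. The iron exporter gene Slc40a1 was at 1398 CPM against 1169 CPM. Monocyte and dendritic genes summed to 70.9 CPM against 144 CPM, and 7 of the 9 were at 0 in the proliferating nuclei. All 10 nuclei labelled LPD control had at least 3 of the 5 gate genes, which had chosen them. In the library labelled LPD control, 8 of the 10 had at least 2 Kupffer cell genes, at 2183 CPM against 2241 CPM in the others. In that labelled CD control, 5 of the 8 had at least 2 Kupffer cell genes, at 990 CPM against 968 CPM in the other macrophage nuclei, 4 of the 8 also met the hepatocyte gate and 4 met the endothelial or lymphoid gate. Without nuclei that met 2 of the macrophage, endothelial and lymphoid gates the share in that library was 4 of 179 (2.23%, 0.612 to 5.62). The data went against the name in the library labelled CD oncogene: its 3 nuclei each had exactly 2 gate genes, at 176 CPM against 1306 CPM in the other nuclei of the gate, Cd5l and Csf1r were at 0, all 3 also met the hepatocyte gate, and their depth was 7111 to 18749 UMIs. A gate that also barred nuclei with at least 3 hepatocyte genes left none of them.

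Most proliferating nuclei of the endothelial gate also carried hepatocyte RNA. In the CD pair, 6 of 8 in the library labelled CD control and 14 of 16 under the label CD oncogene also met the hepatocyte gate, as did 53.9% and 75.1% of the other nuclei of the gate. In the LPD libraries the gate held 1 of 655 nuclei (0.153%, 0.00387 to 0.848) and 2 of 1086 (0.184%, 0.0223 to 0.664), against 8 of 841 (0.951%, 0.412 to 1.87) and 16 of 736 (2.17%, 1.25 to 3.51) in the CD libraries. Without nuclei that had at least 3 hepatocyte genes, the counts were 2 of 386 (0.518%, 0.0628 to 1.86), 2 of 181 (1.10%, 0.134 to 3.93), 1 of 486 (0.206%, 0.00521 to 1.14) and 0 of 872, which allows up to 0.344%. Lymphoid shares were 4 of 326 (1.23%), 0 of 220, which allows up to 1.36%, 1 of 153 (0.654%) and 5 of 354 (1.41%). The 4 lymphoid nuclei of the library labelled CD control had T and NK cell genes at 2810 CPM against 999 CPM in the other lymphoid nuclei, and B cell genes at 0 against 2291 CPM. Of the 10 T and NK genes, 5 were at 0 in them, Cd3e, Cd3g and Trac included. All 4 had exactly 2 gate genes and also met the hepatocyte gate, as did 49.4% of the other lymphoid nuclei. With hepatocyte-rich nuclei barred, 0 of 163 remained, which allows up to 1.84%. In the 26 nuclei without a class the summed T and NK genes were at 2788, 4616, 2231 and 3593 CPM. The other nuclei without a class had 570, 470, 253 and 940 CPM. These sums do not show how many nuclei carried the UMIs. The list includes Ptprc, the only one of its 10 genes with a UMI in proliferating macrophage nuclei labelled CD control and LPD control. A level of the list thus does not by itself mark T or NK cells.

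Of 10 hepatocyte genes outside the gate, all 124 hepatocyte-like proliferating nuclei had at least 2. The list summed to 11095, 13303, 12300 and 14550 CPM, against 11303, 14987, 16687 and 16814 CPM in the other hepatocyte-like nuclei. These genes did not set the class apart, since the other nuclei of the macrophage and endothelial gates had at least 2 of them in 99.8% to 100% of cases in the CD libraries, at 7780 to 12838 CPM, and in 77.4% to 92.6% in the LPD libraries, at 9005 to 11019 CPM. The hepatocyte-like proliferating nuclei were deeper, with median UMI counts of 6606, 5886.5, 3284 and 2773 against 4741.5, 3781, 2387 and 2381. Their median mitochondrial share was 5.89% against 1.86% in the library labelled CD control and 1.94% against 0.803% under the label CD oncogene. In the LPD libraries it was 0.107% against 0.0820% and 0.0614% against 0.101%. T and NK genes, with Ptprc among them, summed to 127, 24.1, 26.0 and 247 CPM against 21.2, 26.2, 10.9 and 25.0 CPM. At least 2 of them were found in 2, 1, 0 and 3 nuclei. Under the label LPD control only Ptprc had a UMI. Without the nuclei that held any T or NK UMI, a choice made after these values were seen, hepatocyte-like shares were 0.321%, 0.466%, 0.128% and 0.454%, and the intervals of the libraries labelled CD control (0.206 to 0.477) and LPD control (0.0584 to 0.242) overlapped.

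Summed over nuclei, replication and mitosis RNA were in different proportion in the 4 libraries. The 35 genes of replication licensing and DNA synthesis (S list) had 356 UMIs against 871 of the M list in the hepatocyte-like proliferating nuclei of the library labelled CD control, a ratio of 0.409 (0.360 to 0.463). In the library labelled CD oncogene there were 375 against 1446 UMIs, a ratio of 0.259 (0.231 to 0.291). The lowest ratio was 0.0769 (0.0412 to 0.132), from 14 against 182 UMIs in the 10 nuclei of the library labelled LPD control, and the highest was 0.525 (0.440 to 0.624), from 201 against 383 UMIs under the label LPD oncogene. No 2 of the 4 intervals overlapped except those of the libraries labelled CD control and LPD oncogene. The median nucleus had 26.4%, 17.0%, 4.17% and 22.2% of its S and M UMIs in the S list. S exceeded M in 12 of 32, 7 of 50, 0 of 10 and 8 of 32 nuclei, and 5 of the 10 nuclei of the library labelled LPD control had no S UMI at all. Without the nucleus that held the most S and M UMIs in each library, the ratios were 0.437, 0.290, 0.101 and 0.493. With at least 4 rule genes, the ratio under the label LPD oncogene was 0.343. In macrophage nuclei the ratios were 0.598 (0.441 to 0.806), 0.206 (0.130 to 0.317), 0.559 (0.397 to 0.780) and 0.457 (0.389 to 0.534), so the 2 LPD libraries did not differ there beyond counting error. The value under the label CD oncogene came from the 3 nuclei for which the data went against the macrophage name. It was 0.104 without the nucleus that held the most S and M UMIs.

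**Figure D2:**
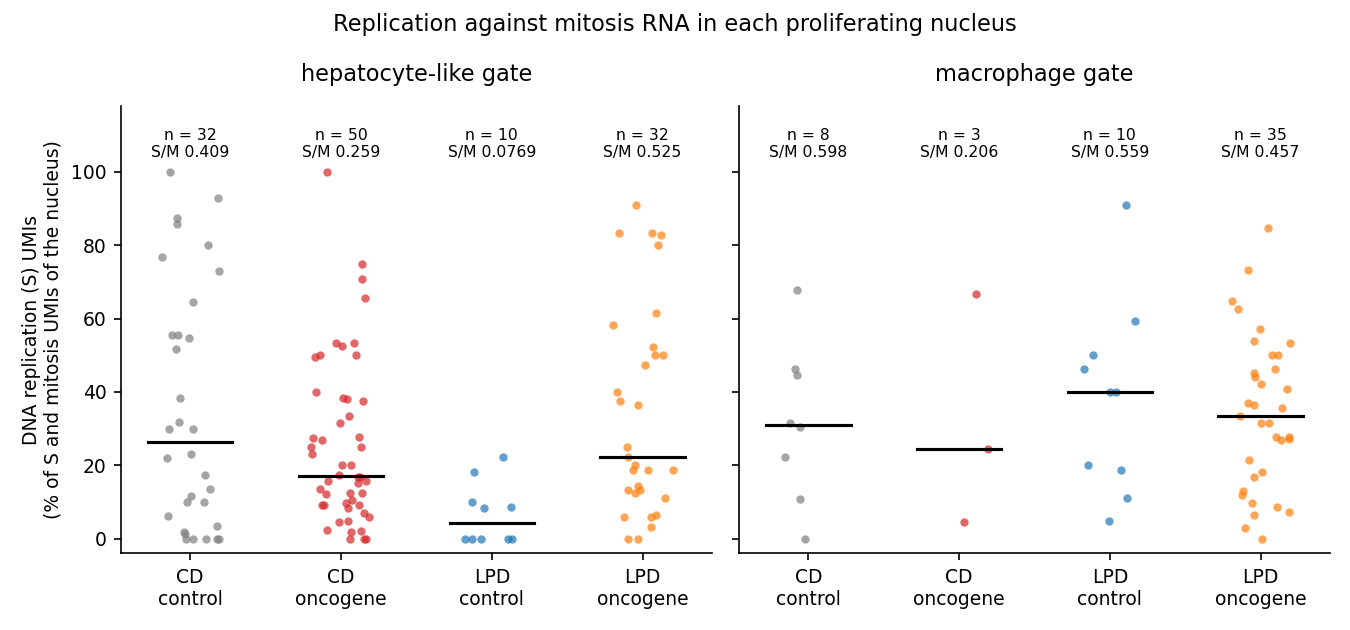
Each point is 1 proliferating nucleus of the hepatocyte-like (left) or macrophage gate (right), and the y axis gives the replication (S list) UMIs as a percent of its S and M list UMIs; horizontal lines are medians, and the number of nuclei and the ratio of summed S to summed M UMIs stand above each library. In the hepatocyte-like gate the 10 nuclei of the library labelled LPD control lay between 0% and 22.2%, while the other libraries ranged up to 90.9% or 100%.

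Single genes of both lists were seen in different numbers of nuclei. Under the label LPD control, the spindle assembly factor gene Tpx2 was found in 8 of the 10 hepatocyte-like nuclei, the cytokinesis genes Ect2 and Racgap1 in 7 each, and Prc1, which bundles the central spindle, in 6. Pola1, the catalytic subunit of DNA polymerase α, and Atad2 were each found in 1, and Hells and Tyms in none, which at this depth allows a UMI in up to 30.0% of such nuclei. Under the label LPD oncogene, Tpx2 was found in 4 of 32 nuclei, Pola1 in 13 and Atad2 in 12. Tpx2 was at 390 CPM under LPD control and 36.7 CPM under LPD oncogene, and Pola1 at 52.0 and 293 CPM.

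Against the other hepatocyte-like nuclei of the same library, gene lists were highest at the last steps of the cycle. Since the rule uses mitotic genes, this contrast describes the nuclei and does not test them. The spindle list was 106-fold, 91.7-fold, 172-fold and 87.4-fold higher, and cytokinesis genes 107-fold, 91.3-fold, 198-fold and 48.8-fold higher. Kinetochore genes were 26.4-fold to 28.3-fold higher, mitotic kinases and checkpoint genes 19.8-fold to 30.8-fold, replication fork repair genes 9.28-fold to 12.4-fold and condensin genes 7.47-fold to 9.82-fold. DNA synthesis genes were 6.52-fold, 3.73-fold and 6.59-fold higher in the libraries labelled CD control, CD oncogene and LPD oncogene, but 0.991-fold (0.428 to 1.95) under the label LPD control. Licensing genes were 2.64-fold, 1.85-fold and 3.80-fold higher in the same 3 libraries and 1.48-fold (0.543 to 3.23) under LPD control. Cyclins and their kinases were at 1.91-fold, 2.27-fold, 1.82-fold and 1.17-fold, the last with an interval of 0.930 to 1.46. Cell cycle transcription factors were 2.91-fold to 4.31-fold higher.

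**Figure D3:**
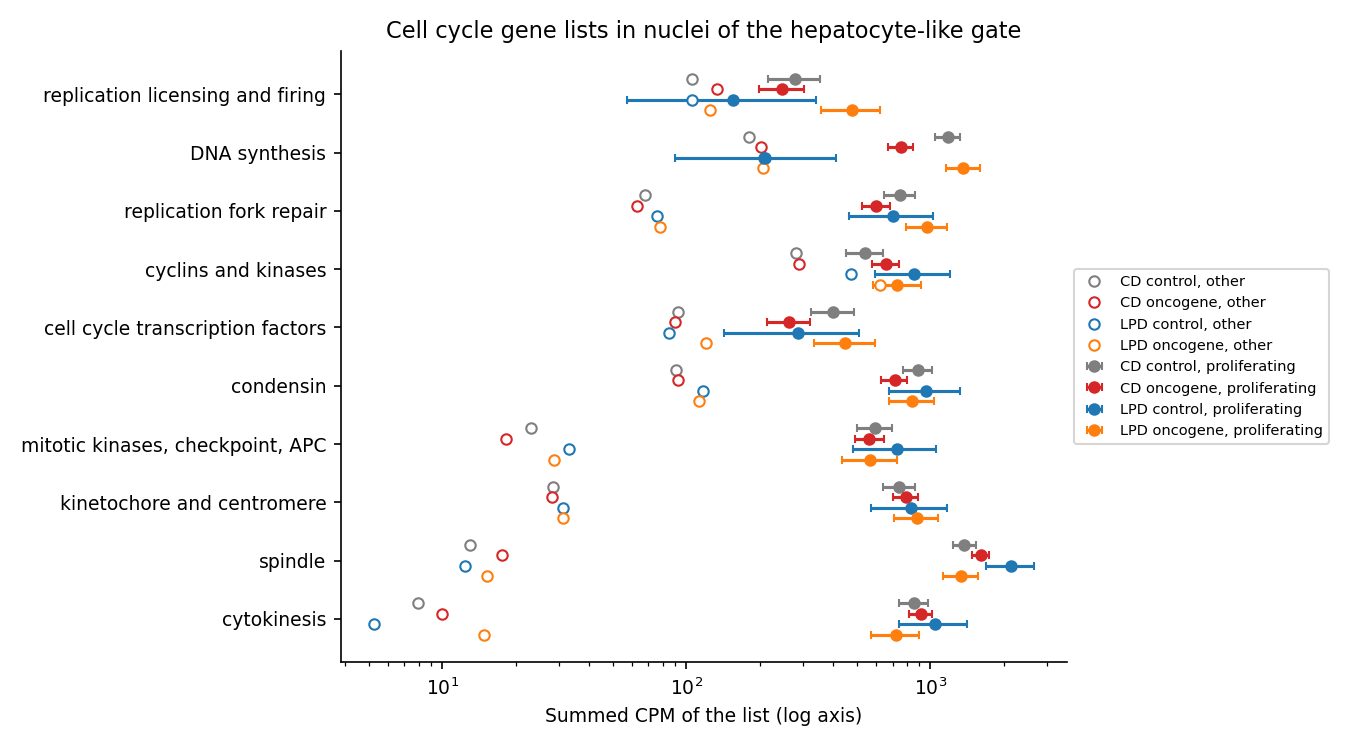
The summed CPM (log axis) of 10 cell cycle gene lists is plotted for proliferating (filled points, with 95% exact counting intervals) and other nuclei (open points) of the hepatocyte-like gate, 1 colour per library, in the order from replication at the top to division at the bottom. Spindle and cytokinesis lists were 48.8-fold to 198-fold higher in proliferating nuclei, while for DNA synthesis the points of the library labelled LPD control coincided, at 208 and 210 CPM.

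For single genes, the 3 libraries with at least 20 hepatocyte-like proliferating nuclei were used, and genes with at least 20 CPM in 1 set and 20 UMIs in both together were compared. A difference of at least 2-fold on the log2(CPM + 5) scale was counted. Of the genes compared, 10.1%, 7.36% and 12.1% were at least 2-fold higher in the proliferating nuclei of the libraries labelled CD control, CD oncogene and LPD oncogene, and 3.88%, 2.16% and 8.12% were at least 2-fold lower. In all 3 libraries 179 of 6033 genes (2.97%) were higher and 9 (0.149%) were lower. After thinning to 1000 UMIs, 82 of these 179 and 3 of these 9 were still counted. The 32, 50 and 32 proliferating nuclei then held only 1000 UMIs each, so a few UMIs could make or undo a call. Of the 136 genes in the cell cycle lists, 56 could be compared in all 3, and 49 of these were higher. The rule favours this direction, and so does the filter for genes that are low in the other nuclei. Many of the listed genes were too low to be compared. Of the spindle list, 14 of 17, 16 of 17 and 8 of 17 genes could be compared, and all of these were higher.

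The 10 genes that were highest in all 3 libraries, outside the rule and gate genes, were Lockd, Prc1, Anln, Cdca2, Kif15, Neil3, Efcab11, Ckap2, Racgap1 and Esco2. Lockd, a long non-coding RNA (ENSMUSG00000098318, chromosome 6, 134929092 to 134956798, plus strand of GRCm38, as are the positions below) transcribed downstream of the cell cycle inhibitor gene Cdkn1b, was first. It was at 201, 247 and 293 CPM against 0.599, 0.568 and 1.34 CPM, log2 ratios of 5.20, 5.50 and 5.56. It had a UMI in 15 of 32, 31 of 50 and 15 of 32 nuclei. Prc1 (chromosome 7, 80294450 to 80316259, plus strand) was next, with log2 ratios of 5.12, 4.84 and 4.70. The division genes Anln (4.67, 4.78 and 4.60) and Racgap1 (4.52, 3.97 and 4.53), the spindle genes Kif15 (4.72, 4.33 and 5.18) and Ckap2 (4.63, 4.99 and 4.11) and the chromosome protein gene Cdca2 (4.47, 4.99 and 4.70) were among them. Neil3, a DNA glycosylase that repairs crosslinks at replication forks, had ratios of 4.93, 4.17 and 4.997, and Esco2, a cohesin acetyltransferase of S phase, 4.42, 4.29 and 3.89. Efcab11 had ratios of 4.41, 4.16 and 5.04. All 10 are annotated as protein-coding except Lockd.

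The 5 lowest genes in all 3 libraries lay outside the cell cycle. Slc1a2, a glutamate transporter gene of pericentral hepatocytes (chromosome 2, 102658659 to 102790784, plus strand), was at 140, 10.7 and 18.3 CPM against 429, 222 and 286 CPM, and under the label LPD control at 26.0 against 133 CPM. It had a UMI in 7 of 32, 3 of 50, 1 of 10 and 1 of 32 nuclei. Hal, the periportal histidine ammonia lyase (chromosome 10, 93488768 to 93519304, plus strand), was at 115, 196 and 36.7 CPM against 274, 485 and 101 CPM. Carmil1, a regulator of actin capping, had log2 ratios of -1.61, -1.93 and -1.53. The non-coding 4732419C18Rik had -1.34, -1.32 and -2.01, the last from 1 UMI. Rab4b rested on 1, 1 and 0 UMIs in the proliferating nuclei.

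Macrophage and hepatocyte-like proliferating nuclei differed in which cell cycle genes were seen. Kif23, a central spindle motor, had a UMI in 37 of 56 macrophage nuclei (66.1%), against 31 of 124 hepatocyte-like nuclei (25.0%) and 5.02% of the other macrophage nuclei. Cit, the citron kinase of the midbody, was found in 24 of 56 (42.9%) and 9 of 124 (7.26%), and Pola1 in 40 of 56 (71.4%) and 56 of 124 (45.2%). Ect2 went the other way, with 16 of 56 (28.6%) and 69 of 124 (55.6%), and the condensin gene Smc4 was found in 27 (48.2%) and 84 (67.7%). Within the library labelled LPD oncogene, the only one with at least 20 nuclei of both gates, Kif23 was at 426 CPM in macrophage and 73.3 CPM in hepatocyte-like proliferating nuclei, Cit at 233 and 36.7 CPM and Ect2 at 111 and 211 CPM. Median depth in that library was 2235 UMIs in macrophage and 2773 UMIs in hepatocyte-like proliferating nuclei. These differences between cell types were not tested.

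In the same library the 35 macrophage nuclei had spindle genes 34.0-fold, kinetochore genes 20.9-fold, cytokinesis genes 19.1-fold and mitotic kinases 17.4-fold above the other macrophage nuclei. Replication fork repair was 9.67-fold, condensin 5.67-fold, DNA synthesis 4.45-fold and licensing 3.38-fold higher. Prc1 was at 243 CPM against 0.913 CPM, Tpx2 at 233 against 1.83 CPM, Ndc80, of the outer kinetochore, at 162 against 0.913 CPM and Kif15 at 395 against 14.6 CPM. Of 7650 genes compared, 5.95% were at least 2-fold higher and 12.7% at least 2-fold lower in the proliferating nuclei. Genes of macrophage identity and self-renewal summed to 0.684-fold (0.551 to 0.840) the level of the other macrophage nuclei.

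Zonation genes mark where along the lobule, from the portal to the central vein, a hepatocyte lies. The 11 pericentral genes summed to 1523, 1405, 494 and 1530 CPM in proliferating nuclei, against 3253, 1924, 1508 and 1650 CPM in the others. The log2 ratios were -1.09 (-1.25 to -0.95), -0.45 (-0.58 to -0.33), -1.61 (-2.34 to -0.97) and -0.11 (-0.34 to 0.11), so pericentral RNA was lower beyond counting error in 3 libraries and not under the label LPD oncogene. The last value was -0.59 when at least 4 rule genes were asked for and 0.19 after thinning to 1000 UMIs. The 11 periportal genes summed to 1519, 2939, 4681 and 2501 CPM against 1694, 3822, 5969 and 3235 CPM, and their log2 ratios of -0.16, -0.38, -0.35 and -0.37 were all below 0 beyond counting error. Pericentral UMIs were 50.1%, 32.3%, 9.55% and 38.0% of the sum of both lists in proliferating nuclei, against 65.8%, 33.5%, 20.2% and 33.8% in the others. In the median nucleus the pericentral part was 37.5%, 28.1%, 7.83% and 16.7%, against 54.4%, 14.3%, 7.14% and 14.3%. Pooled and median values thus differed in direction under the labels CD oncogene and LPD control. The urea cycle genes had log2 ratios of -0.18 (-0.29 to -0.07), -0.20 (-0.27 to -0.14), -0.41 (-0.62 to -0.20) and 0.01 (-0.11 to 0.14).

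**Figure D4:**
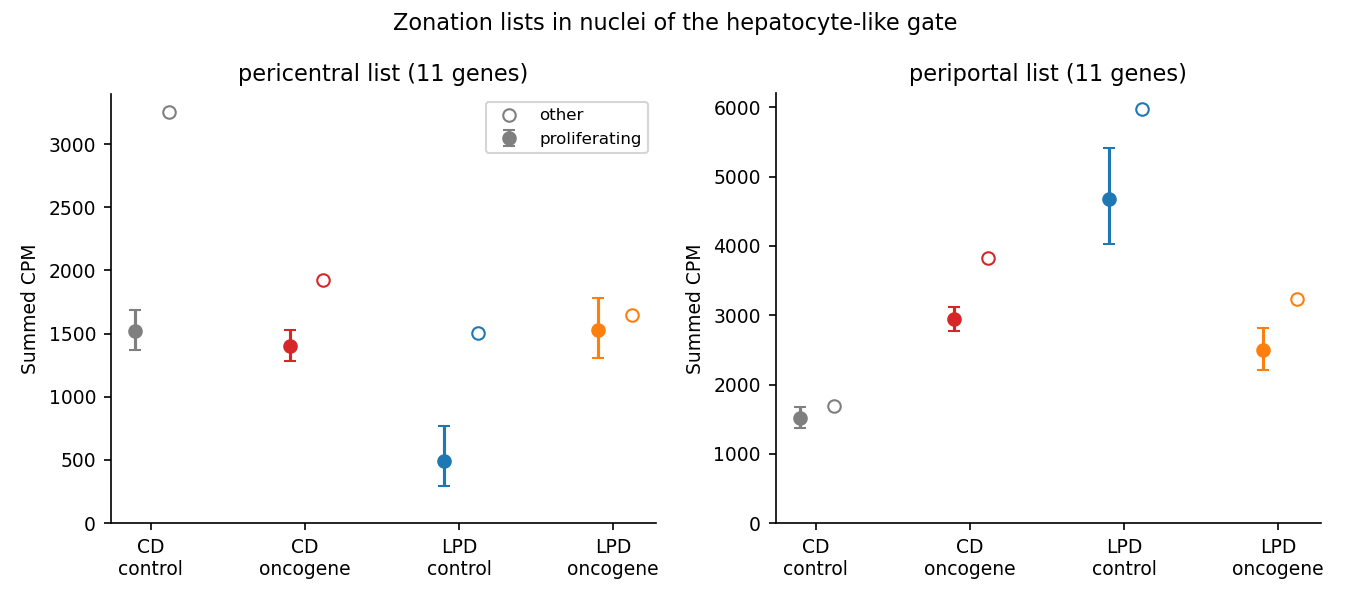
The summed CPM of 11 pericentral (left) and 11 periportal genes (right) is plotted for proliferating (filled points, with 95% exact counting intervals) and other hepatocyte-like nuclei (open points) of the 4 libraries. The pericentral sum lay below that of the other nuclei in 3 libraries and at 1530 against 1650 CPM under the label LPD oncogene, and the periportal sum lay below in all 4.

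The pericentral genes did not move as 1 group. Glul, the glutamine synthetase of the hepatocytes next to the central vein, was at 209, 18.8, 0 and 147 CPM against 347, 67.7, 141 and 208 CPM, and 0 of the 10 nuclei under the label LPD control had a UMI, which allows up to 30.0%. Cyp2e1, a pericentral cytochrome P450, was at 406, 539, 182 and 385 CPM against 1192, 798, 581 and 632 CPM, lower in each library. Cyp2c29, another one, was at 337, 619, 182 and 651 CPM against 604, 506, 267 and 186 CPM, thus higher in the libraries labelled CD oncogene and LPD oncogene, with log2 ratios of 0.29 (0.10 to 0.48) and 1.78 (1.44 to 2.14). The periportal Cyp2f2 was at 197, 145, 286 and 174 CPM against 279, 374, 414 and 307 CPM.

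Of growth signals, Egfr, the epidermal growth factor receptor, was at 6046, 2931, 884 and 2483 CPM in the proliferating nuclei and at 9434, 3832, 1821 and 4045 CPM in the other hepatocyte-like nuclei, log2 ratios of -0.64, -0.39, -1.04 and -0.70, all below 0 beyond counting error. Egfr is from a list of 10 growth genes, of which 6 could be compared in the libraries labelled CD control, CD oncogene and LPD oncogene. The median log2 ratios of those 6 were -0.28, -0.13 and 0.04, nearer to no change than Egfr. Ccnd1, the cyclin that moves hepatocytes into the cycle, rested on 2, 3, 2 and 4 UMIs. Kinase inhibitors and p53 targets summed to 1.08-fold, 1.68-fold, 1.55-fold and 1.05-fold the level of the other nuclei, with an interval above 1 only in the library labelled CD oncogene (1.42 to 1.98). The p53 target Cdkn1a, which halts the cycle, had a UMI in 1 of 32, 7 of 50, 1 of 10 and 4 of 32 proliferating nuclei.

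No proliferating nucleus carried a UMI of the human transgenes. Among hepatocyte-like proliferating nuclei the counts were 0 of 32, 0 of 50, 0 of 10 and 0 of 32, which allow shares of up to 9.38%, 6.00%, 30.0% and 9.38%. In the other hepatocyte-like nuclei 83 of 8028 (1.03%, 0.824 to 1.28) had one in the library labelled CD control and 6 of 6608 (0.0908%, 0.0333 to 0.198) under the label LPD oncogene. Of the nuclei outside the hepatocyte gate in the library labelled CD control, 7 of 2337 (0.300%) had one. At the hepatocyte-like shares 0.331 and 0.0291 proliferating nuclei with a transgene UMI would be counted, so a difference was not detectable at this depth.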

How the data were processed

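Nuclei from frozen mouse liver were sequenced as 10x 3′ libraries, 1 per diet and plasmid, 4 in all. The values are UMI counts per gene and barcode that the authors deposited as filtered matrices, made with Cell Ranger 9.0.1 on mm10 plus 2 human transgene sequences; the submitters' notes also name Seurat 5. All 32287 features were used, and counts were summed per library and gate over the 32285 mouse genes as CPM. Intervals are 95% exact binomial, Poisson or conditional ratio intervals. Log2 ratios used a pseudocount of 5 CPM. The 2-fold contrast and the intervals of shares and of ratios of sums were tried on simulated counts, drawn without spread between nuclei. The Poisson intervals and the other statistics were not simulated. Promoter windows were from RefSeq GRCm38.p6. Scrublet called 1 nucleus in all, so it did not work as a doublet filter, and the 8% of nuclei with the highest scores were left out as an alternative instead. numpy 2.4.6, scipy 1.17.1, pandas 2.3.3, scanpy 1.11.5 and edgeR 4.0.16 (TMM factors only) were used.

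With 1 library per group no test between groups was possible. Genes were named from lists or as the 10 highest and 5 lowest by the least change over the 3 libraries with at least 20 hepatocyte-like proliferating nuclei. The rule, the gates and the gene lists were chosen with earlier results of these data known. The lists were replication licensing, DNA synthesis, fork repair, cyclins and kinases, transcription factors, condensin, mitotic kinases, kinetochore, spindle, cytokinesis, p53 targets, growth signals, macrophage identity, pericentral, periportal and urea cycle genes, and markers of liver cell types. Single genes that share reads with overlapping genes, such as Cenpp, whose introns hold other genes, are uncertain.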

Additional observations from a re-analysis of the deposited data

Results flagged for a closer look

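In 4 of the measures checked for it, the oncogene label lay above the control label on one diet and below it on the other. Checked were shares and M levels of the macrophage, endothelial and hepatocyte-like gates, and the S to M and zonation ratios of hepatocyte-like nuclei. Others were not, such as the lymphoid share (1.23% and 0% in the CD pair, 0.654% and 1.41% in the LPD pair). None of these differences was tested, since each group was 1 library, and the CD direction depends on labels that the transgene UMIs go against. The macrophage share of proliferating nuclei was 3.17% and 0.915% in the CD pair, control label first, and 3.003% and 4.39% in the LPD pair. After thinning it was 6.75% (3.42 to 11.8) and 5.58% (3.68 to 8.07) in the LPD pair, with intervals that overlapped. Both pairs then moved the same way, as they also would if the labels of the CD pair were exchanged. The M level over all macrophage nuclei was 232 and 190 CPM in the CD pair and 572 and 631 CPM in the LPD pair. With hepatocyte-rich nuclei barred it was 399 and 156 CPM in the CD pair and 805 and 776 CPM in the LPD pair, both lower under the oncogene label. Over all endothelial nuclei it was 154 and 180 CPM in the CD pair and 179 and 150 CPM in the LPD pair. The ratio of S to M list UMIs in hepatocyte-like proliferating nuclei was 0.409 and 0.259 in the CD pair and 0.0769 and 0.525 in the LPD pair. Groups of 1 library allow no check for outlying samples.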

How the results depend on the processing

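No paired analysis was possible because each group was 1 library. Over 87 values and 534 recomputations, 420 moved by less than the counting interval (counts of genes by less than 1.5 times) and 114 by more. A change of sign could be counted only for the pericentral and periportal log2 ratios. None of these whose interval lay on one side of 0 changed its sign. The pericentral log2 ratio under LPD oncogene, whose interval included 0, turned from -0.11 to 0.19 after thinning. Changes in the order of libraries were not counted. The number of genes compared was not recorded for the alternatives, so the counts of genes below are not shares. In the main setting 757, 498 and 910 genes were higher in the libraries labelled CD control, CD oncogene and LPD oncogene. There, 292, 146 and 609 were lower, of 7522, 6768 and 7499 compared. The cause of a move was not tested unless the setting itself changed which nuclei or genes were counted.

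With at least 2 of the 9 rule genes, 95, 152 and 53 nuclei of the libraries labelled CD control, CD oncogene and LPD control were chosen. Hepatocyte-like shares were then 0.707%, 1.10%, 0.278% and 0.813%, the endothelial share under CD oncogene was 3.94%, and 3 chosen nuclei of the library labelled CD control had a transgene UMI. With at least 4 of 9, the hepatocyte-like share under LPD oncogene was 0.286% and the ratio of S to M was 0.220 under CD oncogene and 0.343 under LPD oncogene. Pericentral log2 ratios were then -1.37, -0.62 and -0.59 in the libraries labelled CD control, CD oncogene and LPD oncogene, the periportal one was -0.47 under CD oncogene, and genes lower in proliferating nuclei numbered 256 under CD oncogene, 986 under LPD oncogene and 22 in all 3 libraries. Without Cenpp, at 3 of 8 genes, S to M was 0.222 under CD oncogene and 0.423 under LPD oncogene, the pericentral and periportal log2 ratios under CD oncogene were -0.65 and -0.48, and 21 genes were lower in all 3 libraries.

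With at least 500 genes and at most 5% mitochondrial UMIs, the library labelled CD control gave an S to M of 0.508, a pericentral log2 ratio of -0.86, a periportal one of -0.35, and 1410 genes higher and 757 lower. The periportal log2 ratio under CD oncogene was -0.26, and 15 genes were lower in all 3 libraries. For thinning to 1000 UMIs the choice of proliferating nuclei made at full depth was kept and nuclei with fewer UMIs were left out. Hepatocyte-like nuclei then numbered 7575, 9658, 6797 and 6275. After this thinning S to M was 0.309 under CD control and 0.437 under LPD oncogene. The pericentral log2 ratio was -0.31 under CD oncogene and 0.19 under LPD oncogene, and the periportal one -0.47 under CD control and -0.66 under LPD control. Genes higher numbered 1968, 1825 and 1748 and genes lower 1611, 1029 and 1610 in the libraries labelled CD control, CD oncogene and LPD oncogene, with 91 lower in all 3, of which 3 were among the 9 above. Of the 179 genes higher in all 3 libraries, 82 were also called after thinning. Each proliferating nucleus then held only 1000 UMIs, so a few UMIs could make or undo a call. Thinned shares at 2 of 9 genes were 0.862% (endothelial) and 6.75% (macrophage) under LPD control.

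Without the low filter, 1261 genes were higher and 792 lower under CD control, 406 were lower under CD oncogene, and 1772 were higher and 1648 lower under LPD oncogene. In all 3 libraries 291 were then higher and 29 lower, and in macrophage nuclei under LPD oncogene 1437 were higher and 2366 lower. With TMM factors 518, 256 and 921 genes were lower in the 3 libraries and 23 in all. The mean of each nucleus's CPM gave M levels of 206, 232 and 211 CPM for endothelial nuclei under CD control, CD oncogene and LPD control, 96.8 and 105 CPM for hepatocyte-like nuclei of the CD pair, and 263, 168 and 552 CPM for macrophage nuclei under CD control, CD oncogene and LPD oncogene.

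With gates that bar hepatocyte-rich nuclei, endothelial shares were 1.10% under CD oncogene and 0% under LPD oncogene, and the macrophage share under CD oncogene was 0%. M levels were 399, 156, 805 and 776 CPM for macrophage nuclei and 221, 366 and 242 CPM for endothelial nuclei of the first 3 libraries, an alternative added after the data were seen. Without nuclei that met 2 gates the macrophage M level under CD oncogene was 166 CPM. Without the 8% of nuclei with the highest Scrublet scores, M levels were 180, 226 and 177 CPM for endothelial nuclei under CD control, LPD control and LPD oncogene, and 671 and 738 CPM for macrophage nuclei of the LPD pair. Without nuclei with a T or NK UMI, added after the data were seen, the pericentral log2 ratio under CD control was -1.58.

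Under LPD control only 10 hepatocyte-like nuclei and 14 S list UMIs carry the ratio, and depth limits the transgene result in every library.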

Other observations

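Of the barcodes removed by the limits on genes and mitochondrial UMIs, 3 of 666 in the library labelled CD control and 3 of 462 in the one labelled CD oncogene had at least 3 of the 9 rule genes, and 0 of 1 and 0 of 4 in the LPD libraries. In the library labelled LPD oncogene, the 11 proliferating nuclei without a class had an S to M ratio of 0.667 (0.473 to 0.934), and 6 of them had at least 2 T and NK genes, against 8.48% of the other nuclei without a class.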
